A study of Mus musculus with 2 samples.

Results

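The Sox genes are a family of transcription factor genes whose products bind DNA through a shared HMG box and bend it. They were examined here for reads of 2 chromatin immunoprecipitation and sequencing (ChIP-seq) libraries, of Msl1 and of Nsl1, from mouse embryonic stem cells (mESCs). The 10 genes, Sox1, Sox2, Sox4, Sox5, Sox9, Sox11, Sox12, Sox13, Sox15 and Sox21, were chosen by name from the autosomal members of the family, with Msl1 and Nsl1 reads at some of them already known. They are 10 of 21411 autosomal protein-coding gene entries, that of Sox1 added to the annotation, and 1 transcription start site (TSS) was chosen for each entry. The rule that defined the set also named the measures, which are the reads at the TSS, over the transcript and 500 to 2000 bases downstream of the TSS, over the local level, and the contrast of single-exon genes with genes that have introns. These values are therefore descriptions and were not tested.

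Both libraries came from the male mESC line E14 at passage 26, of wild-type (wt) genotype on the strain background 129P2/OlaHsd, with no treatment named. The cells were grown on gelatine and feeder cells of the CD1 strain and then for a last passage without feeders. There was 1 library per antibody, so that no test between the libraries was possible, and the input DNA library was not used here. The data hold no RNA, and the cell type was not checked against expression of its markers.

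Msl1 and Nsl1 are the scaffold subunits of separate complexes that share the histone acetyltransferase Mof. The MSL complex acetylates histone H4 at lysine 16 and is known from the dosage-compensated X chromosome of flies, where it spreads over transcribed gene bodies, while the NSL complex is known from promoters of housekeeping genes. Among the Sox genes, Sox2 is a core factor of pluripotency together with Oct4 and Nanog, Sox15 is also expressed in mESCs, and most of the others are known as regulators of neural, skeletal, cardiac or neural crest development that are turned on during differentiation. Several Sox genes have no introns, which is unusual for protein-coding genes.

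The Msl1 library held 23888517 aligned reads of 50 bases and the Nsl1 library 26084098 reads of 36 bases. At 1 read per position and strand, 19483142 and 24883001 nuclear reads remained, and repeated reads made up 18.3% of the Msl1 library and 4.56% of the Nsl1 library. Each value below is a ratio, the reads in a window over the reads expected there from the level 5 to 50 kb away on both sides of the TSS, so that 1 is the local level. The 95% intervals are exact Poisson intervals of the window's reads and cover the counting error of those reads only. They take the local level as exact and leave out the spread between cultures or immunoprecipitations. All 10 genes had at least the 20 flanking reads required in each library.

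Sequences are given first for the parts of the genes that the values below turn on, with CpG dinucleotides in capitals and all sequences written 5′ to 3′ on the strand of the gene, from the mm9 genome. The 3 coding stretches of 250 bases are from single-exon genes, chosen because Msl1 reads were dense over them. That of Sox4 (chr13:29043583-29043832, minus strand, 1750 to 2000 bases downstream of the TSS, 21 CpG) and that of Sox11 (chr12:28026825-28027074, minus strand, 500 to 750 bases downstream, 23 CpG) were the highest Msl1 bins of their genes, and that of Sox2 (chr3:34549927-34550176, plus strand, 1000 to 1250 bases downstream, 16 CpG) was the bin before its highest. The stretch of Sox12 (chr2:152224783-152225032, minus strand, 1250 to 1000 bases upstream of the TSS, 10 CpG) lies outside the annotated gene and held the densest Nsl1 reads of any bin at the 10 genes.
Sox2 coding stretch: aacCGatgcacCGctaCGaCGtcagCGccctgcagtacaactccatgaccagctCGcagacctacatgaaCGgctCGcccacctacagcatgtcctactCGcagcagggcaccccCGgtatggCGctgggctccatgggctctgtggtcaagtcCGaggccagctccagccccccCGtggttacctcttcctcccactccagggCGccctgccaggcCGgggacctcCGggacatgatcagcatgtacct
Sox4 coding stretch: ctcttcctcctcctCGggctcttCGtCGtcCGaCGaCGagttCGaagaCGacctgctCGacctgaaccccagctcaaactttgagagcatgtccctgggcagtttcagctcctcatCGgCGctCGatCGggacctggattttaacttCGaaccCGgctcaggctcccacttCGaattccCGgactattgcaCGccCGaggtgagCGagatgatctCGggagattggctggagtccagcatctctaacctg
Sox11 coding stretch: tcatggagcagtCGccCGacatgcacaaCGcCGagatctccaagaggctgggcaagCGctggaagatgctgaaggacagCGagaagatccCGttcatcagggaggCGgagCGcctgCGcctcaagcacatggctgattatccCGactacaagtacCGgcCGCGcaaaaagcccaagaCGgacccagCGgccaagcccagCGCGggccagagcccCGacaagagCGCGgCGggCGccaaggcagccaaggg
Sox12 upstream stretch: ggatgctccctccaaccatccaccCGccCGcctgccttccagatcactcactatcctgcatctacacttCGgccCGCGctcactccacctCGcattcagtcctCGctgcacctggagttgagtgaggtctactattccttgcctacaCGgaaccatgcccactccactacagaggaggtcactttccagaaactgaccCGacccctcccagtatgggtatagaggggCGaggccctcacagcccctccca

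The Sox2 stretch had an Msl1 ratio of 7.60 (95% interval 4.96 to 11.1) from 26 reads and an Nsl1 ratio of 1.27 (0.346 to 3.25) from 4 reads. Over the Sox4 stretch the Msl1 ratio was 11.6 (7.69 to 16.7) from 28 reads, against an Nsl1 ratio of 0.972 (0.200 to 2.84) from 3 reads. The Sox11 stretch, with 17 Msl1 reads and 2 Nsl1 reads, had ratios of 10.7 (6.24 to 17.2) and 0.782 (0.0947 to 2.82). The Sox12 stretch, picked for its Nsl1 reads, had an Msl1 ratio of 3.33 (1.60 to 6.12) from 10 reads and an Nsl1 ratio of 5.40 (3.30 to 8.34) from 20 reads. These 2 intervals overlapped. As these bins were picked for their height in 1 library, the ratios describe them. They are no measure of how often such heights occur or of the order of the libraries.

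Sox2 and its relative Sox1 belong to the SoxB1 group, whose products maintain pluripotent and neural progenitor cells. Sox2 (chr3:34548927-34551383, plus strand) is a single exon of 2457 bases that lies inside the long noncoding gene Sox2ot on the same strand. Msl1 reads were near the local level at its TSS and dense over the gene body. Within 500 bases of the TSS there were 21 Msl1 reads, a ratio of 1.53 (0.950 to 2.35), at the 40.0th percentile of all genes tested. From 500 to 2000 bases downstream there were 141 Msl1 reads, a ratio of 6.87 (5.78 to 8.10), at the 99.6th percentile and the highest downstream ratio among the 10 genes. Per base, the downstream window held 4.48 times (2.82 to 7.46) the Msl1 reads of the TSS window. The contrast at Sox2 was also present against the upstream side, where 63 reads from 2000 to 500 bases upstream gave a ratio of 3.07 (2.36 to 3.93), so that the Msl1 read level of Sox2 rose on both sides of a low TSS.

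The Msl1 level in Sox2 did not end with the transcript. The coding sequence had an Msl1 ratio of 6.72 (5.39 to 8.28), the 3′ UTR 6.24 (5.04 to 7.64), the 5′ UTR 1.60 (0.731 to 3.04) and the 2 kb after the transcript end 4.46 (3.70 to 5.32). In bins of 250 bases from 2 kb upstream to 5 kb downstream, the bins at 2 or more times the local level summed to 5750 bases, the most of any of the 10 genes, and the highest bin, 1250 to 1500 bases downstream, reached 9.06 (6.15 to 12.9). In the Nsl1 library Sox2 had 17 reads at the TSS, a ratio of 1.35 (0.787 to 2.16), and 29 downstream, a ratio of 1.54 (1.03 to 2.21). Downstream, the Msl1 ratio was thus 4.47 times (2.98 to 6.92) the Nsl1 ratio, whereas at the TSS the quotient of 1.14 (0.571 to 2.29) included 1.

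Sox1 (chr8:12395519-12399555, plus strand), which acts in neural progenitors and the lens, had the lowest downstream Msl1 ratio of the single-exon genes. The annotation used has no gene named Sox1, and its start was found by matching its RefSeq promoter of the later build GRCm38.p6 to mm9, where it occurred once. Its length of 4037 bases is that of RefSeq, and the locus lies inside the annotated gene Gm5607 on the same strand. There were 29 Msl1 reads at the TSS, a ratio of 2.57 (1.72 to 3.69), and 26 downstream, a ratio of 1.54 (1.00 to 2.25). The Nsl1 library had 18 reads at the TSS, a ratio of 1.31 (0.777 to 2.07), and 11 downstream, a ratio of 0.534 (0.267 to 0.956), the lowest downstream value of the 10 genes. Per base, downstream over TSS was 0.407 (0.174 to 0.911) in Nsl1 and 0.598 (0.338 to 1.05) in Msl1, so that only the Nsl1 interval lay below 1.

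Sox4, Sox11 and Sox12 form the SoxC group, which acts in neuronal differentiation and organ development. Sox4 (chr13:29040788-29045582, minus strand) and Sox11 (chr12:28025562-28027574, minus strand) are single-exon genes of 4795 and 2013 bases. Sox4 overlaps the noncoding gene Gm17419 on the opposite strand, and a short second entry named Sox4 inside it was not used. Sox4 had 36 Msl1 reads at the TSS, a ratio of 3.72 (2.61 to 5.15), and 97 downstream, a ratio of 6.68 (5.42 to 8.15). Sox11 had 29 Msl1 reads at the TSS, a ratio of 4.57 (3.06 to 6.56), and 58 downstream, a ratio of 6.09 (4.63 to 7.88). Both downstream ratios were above the 99th percentile of genes tested (99.5 for Sox4 and 99.3 for Sox11) and their intervals overlapped that of Sox2, so that the order of these 3 genes cannot be told from the counting error.

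The 3 genes differed at the annotated end of the chosen transcript. The Msl1 ratio over the coding sequence was 7.36 (5.95 to 9.0) in Sox4 and 8.38 (6.44 to 10.7) in Sox11. In the long 3′ UTR of Sox4 it was 2.23 (1.70 to 2.87) and in the 2 kb after the end 1.39 (0.919 to 2.03). In Sox11 it was 1.5 (0.486 to 3.49) over a 3′ UTR with 5 reads, and 4.33 (3.27 to 5.64) in the 2 kb after the annotated end. Past the annotated end Msl1 reads were thus near the local level at Sox4 and above it at Sox2 and Sox11. Whether the transcripts of these cells end there was not tested.

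Nsl1 reads were less dense downstream than at the TSS at both Sox4 and Sox11. Sox4 had 30 Nsl1 reads at the TSS, a ratio of 2.43 (1.64 to 3.47), and 19 downstream, a ratio of 1.03 (0.618 to 1.60). Its highest Nsl1 bin was the first after the TSS, 0 to 250 bases, at 3.89 (2.01 to 6.79). For Sox11, 17 Nsl1 reads at the TSS gave a ratio of 1.66 (0.968 to 2.66), and 10 reads downstream gave 0.651 (0.312 to 1.20). Per base, downstream over TSS was 0.422 (0.225 to 0.775) for Sox4 and 0.392 (0.160 to 0.907) for Sox11 in Nsl1, against 1.8 (1.21 to 2.71) and 1.33 (0.840 to 2.16) in Msl1. Over genes with 20 or more reads in both windows together, the median was 0.635 in Nsl1 and 0.807 in Msl1. Both Nsl1 values lay within the quartiles of those genes, 0.368 to 0.970. The Msl1 ratio downstream was 6.51 times (3.95 to 11.3) the Nsl1 ratio at Sox4 and 9.36 times (4.74 to 20.5) at Sox11, the largest quotient among the 10 genes.

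Sox12 (chr2:152219347-152223782, minus strand) has 2 annotated exons, with an intron of 264 bases that lies in its 3′ UTR. There were 22 Msl1 reads at the TSS, a ratio of 1.83 (1.15 to 2.77), and 62 downstream, a ratio of 3.44 (2.64 to 4.41). Upstream there were 40 Msl1 reads, a ratio of 2.22 (1.58 to 3.02), with an interval that overlapped that of the TSS. In Nsl1 the upstream window was the highest, with 55 reads and a ratio of 2.47 (1.86 to 3.22), against 16 reads and 1.08 (0.617 to 1.75) at the TSS and 36 reads and 1.62 (1.13 to 2.24) downstream. No other annotated gene lies within 5 kb of Sox12.

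Sox21 and the SoxE gene Sox9 act in neural development and in the formation of cartilage and testis, respectively. The chosen transcript of Sox21 (chr14:118633788-118635310, minus strand), that with the longest coding sequence, has 2 exons, while a longer annotated transcript with a single exon starts 942 bases upstream, and the noncoding gene Gm4675 starts 144 bases upstream on the opposite strand. Sox21 had the highest Msl1 ratio of the 10 genes at the TSS, with 41 reads and a ratio of 5.89 (4.22 to 7.98), and 43 reads downstream gave 4.11 (2.98 to 5.54). The window upstream of the chosen TSS, which lies within Gm4675 and reaches into the longer transcript, had a ratio of 4.21 (3.06 to 5.65). From the upstream start, the Msl1 ratios were 6.11 (4.42 to 8.24) at the TSS and 4.74 (3.52 to 6.25) downstream, so that the Msl1 level was similar by either start. In Nsl1, 11 reads at the chosen TSS gave 0.914 (0.456 to 1.64) and 30 downstream 1.66 (1.12 to 2.37). The Nsl1 ratios from the upstream start were 1.40 (0.813 to 2.24) at the TSS and 1.09 (0.669 to 1.69) downstream, where the interval included 1. At the chosen TSS the Msl1 ratio was 6.44 times (3.25 to 13.9) the Nsl1 ratio, the largest TSS quotient of the 10 genes.

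Sox9 (chr11:112643538-112649074, plus strand) has 3 exons, and the noncoding gene BC006965 starts 248 bases upstream on the opposite strand. The Msl1 library had 31 reads at its TSS, a ratio of 2.50 (1.70 to 3.55), and 56 downstream, a ratio of 3.01 (2.27 to 3.91). The Msl1 level was highest in exon 1, at 4.17 (3.0 to 5.66), was 3.05 (2.06 to 4.36) in intron 1 and 1.66 (1.3 to 2.11) over the later exons, and ended at 1.05 (0.685 to 1.54) in the 2 kb after the gene. In Nsl1 there were 15 reads at the TSS, a ratio of 0.843 (0.472 to 1.39), and 25 downstream, a ratio of 0.936 (0.606 to 1.38), both with intervals that include the local level.

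Sox15 (chr11:69468816-69470229, plus strand), the SoxG gene, has 2 exons, overlaps Mpdu1 and lies in a gene-dense region, with 11 protein-coding TSSs in the flanks that set its local level against 0 to 3 for the other 9 genes. Further annotated genes within 5 kb of the set are Fxr2 beside Sox15, Etnk2 beside Sox13, Gm11681 beside Sox9 and the miRNA gene AC102525.1 inside Sox1. There were 59 Msl1 reads at the TSS, a ratio of 2.06 (1.57 to 2.66), and 97 downstream, a ratio of 2.26 (1.83 to 2.76). The local level itself was 28.6 Msl1 reads per kb, against 6.34 at Sox11 and 13.8 at Sox13, the lowest and highest of the others. Downstream Sox15 therefore had as many Msl1 reads as Sox4, and against the genome-wide level in place of the local one its downstream ratio was 8.49. In Nsl1, 32 reads at the TSS and 48 downstream both gave a ratio of 1.39, with intervals of 0.954 to 1.97 and 1.03 to 1.85.

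The SoxD genes Sox5 and Sox13 encode proteins without a transactivation domain that act as cofactors in cartilage and lymphocytes. Both have many exons and, by the chosen starts, had the lowest Msl1 levels of the set. Sox5 (chr6:143776945-144158000, minus strand, 15 exons over 381056 bases) had 9 Msl1 reads at the TSS, a ratio of 1.13 (0.516 to 2.14), and 15 downstream, a ratio of 1.25 (0.702 to 2.07). Its Nsl1 ratios were 0.791 (0.362 to 1.5) at the TSS, also from 9 reads, and 0.762 (0.406 to 1.30) downstream. Over the whole transcript, 2792 Msl1 reads gave 0.918 (0.885 to 0.953) and 4214 Nsl1 reads 0.972 (0.943 to 1.00). These intervals leave out the counting error of the local level, which rested on 718 Msl1 and 1024 Nsl1 flanking reads. Intron 1 with its 54107 bases stood at 0.971 in both libraries. The downstream side of the flank, 5 to 50 kb from the TSS, lies inside this intron. The ratio of the intron was therefore drawn towards 1 by its computation and does not show whether the intron is at background. At a start 572497 bases further upstream, annotated only by transcripts without a coding sequence, the Msl1 ratio was 2.10 (1.22 to 3.36) from 17 reads.

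The values of Sox13 (chr1:135280228-135289847, minus strand, 13 exons) depended on the start. At the start of the transcript with the longest coding sequence, 21 Msl1 reads gave a ratio of 1.52 (0.941 to 2.32) and 18 downstream reads gave 0.869 (0.515 to 1.37), and no Nsl1 bin reached 2. At the annotated start 31107 bases upstream (chr1, position 135320954), which begins another protein-coding transcript, 31 Msl1 reads gave 2.56 (1.74 to 3.63) at the TSS and 83 downstream gave 4.56 (3.64 to 5.66). The Nsl1 ratios there were 1.58 (1.01 to 2.35) at the TSS and 1.14 (0.747 to 1.67) downstream. The 2 starts also differed in sequence, with 3 CpG in the 200 bases before the first (chr1:135289848-135290047) and 12 before the second (chr1:135320955-135321154), both on the minus strand with CpG in capitals. Each line below is the 200 bases upstream of a start. The first is labelled by the transcript that begins there and is not its coding sequence.
Sox13 longest coding sequence: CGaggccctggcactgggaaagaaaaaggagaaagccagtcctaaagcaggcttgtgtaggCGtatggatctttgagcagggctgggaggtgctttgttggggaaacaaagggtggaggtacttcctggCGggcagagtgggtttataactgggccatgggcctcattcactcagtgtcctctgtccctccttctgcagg
Sox13 upstream start: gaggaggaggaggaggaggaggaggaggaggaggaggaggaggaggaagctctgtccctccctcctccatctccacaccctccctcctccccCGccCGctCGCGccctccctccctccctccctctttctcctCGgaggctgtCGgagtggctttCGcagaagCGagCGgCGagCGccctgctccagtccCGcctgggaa

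**Figure D1:**
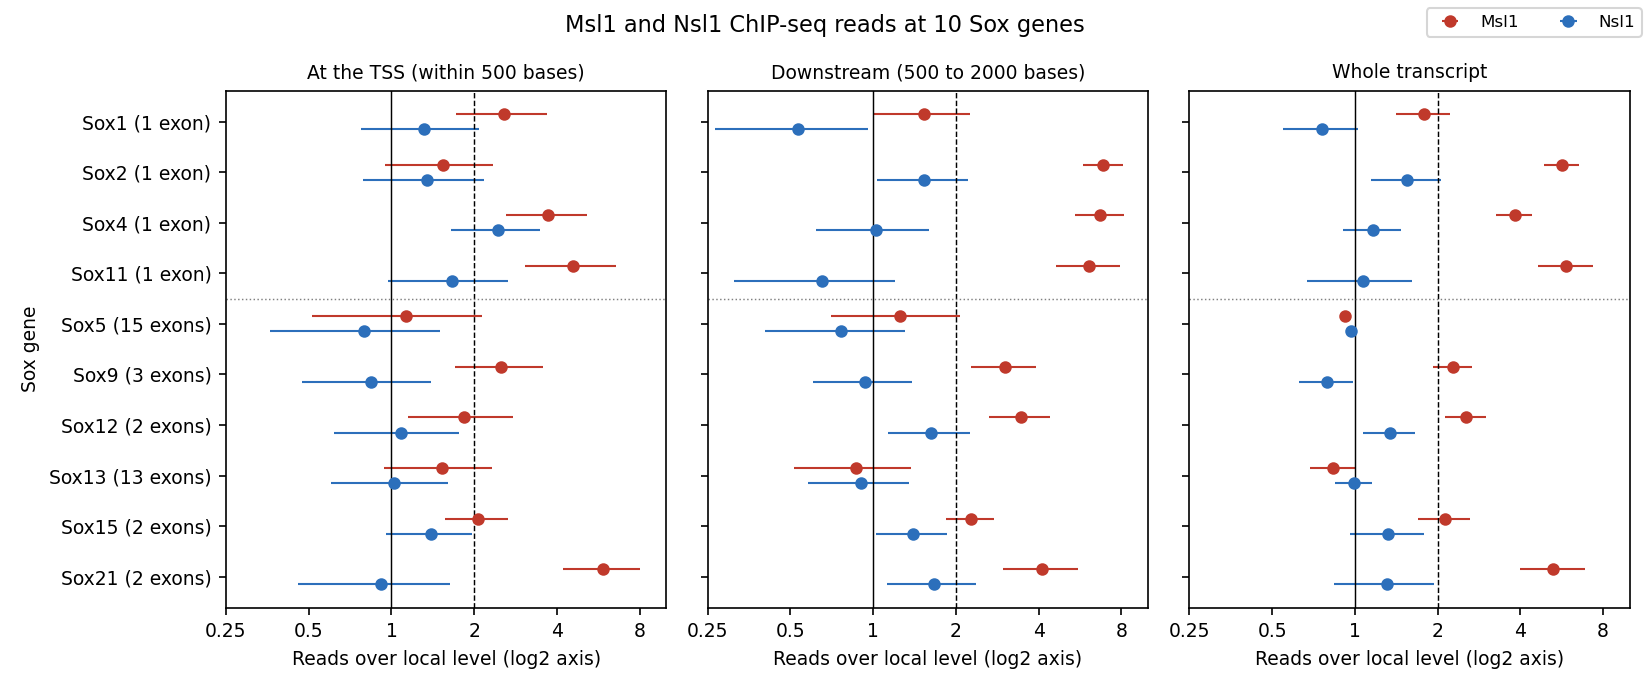
Ratio of reads to the local level at each of the 10 Sox genes (rows, exon number of the chosen transcript in brackets) at the TSS, downstream and over the whole transcript, on log2 axes. Points are the 1 Msl1 (red) and 1 Nsl1 (blue) library, bars exact 95% Poisson intervals, the solid line 1 and the dashed line 2, and the dotted line divides single-exon genes from genes with introns. Downstream, 7 of the 10 Msl1 points and none of the Nsl1 points lie at or beyond 2, beside 32.0% and 4.92% of all genes.

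Counted over the set, the interval lay above the local level at the TSS at 7 of the 10 genes in Msl1 and 1 in Nsl1, where it did at 54.0% and 51.4% of all genes. Downstream it did at 8 in Msl1, against 46.7% of all genes, and at 4 in Nsl1, Sox2, Sox12, Sox15 and Sox21, against 18.5%. For Sox21 in Nsl1 this held by the chosen start and not from the upstream one, at 1.09 (0.669 to 1.69). At the TSS, 6 of the 10 genes had an Msl1 ratio of 2 or more, where 46.2% of all 21091 genes tested did, with Sox15 at 2.06 just above and Sox12 at 1.83 just below. In Nsl1, 1 of the 10, Sox4, reached 2 at the TSS, where 41.2% of 21118 genes did. With the window widened to 1000 bases on each side, the Nsl1 ratio of Sox4 was 1.66 and the Msl1 ratios of Sox1 and Sox15 were 1.86 and 1.71, below 2, while those of Sox2 and Sox12 were 3.0 and 2.45. The median TSS ratio of the 10 genes was 2.28 in Msl1 against 1.86 over all genes, and 1.20 in Nsl1 against 1.70. Against the genome-wide level, 9 of the 10 reached 2 at the TSS in Msl1, where 58.4% of all genes did, and 2 in Nsl1, where 52.6% did.

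Downstream the set was further from the background in Msl1. There 7 of the 10 genes had a ratio of 2 or more, against 32.0% of all genes, and the median was 3.22 against 1.51. In Nsl1 none of the 10 did, against 4.92% of all genes, with a median of 0.981 against 1.15 and a highest value of 1.66 at Sox21, by its chosen start. Against the genome-wide level in place of the local one, 3 of the 10 reached 2 downstream in Nsl1, against 17.2% of all genes, with a median of 1.68 against 1.44, and 8 did in Msl1, against 50.4%, with a median of 4.99 against 2.01. Over the whole transcript, 7 of the 10 genes reached 2 in Msl1, against 9.11% of all genes, with medians of 2.40 and 1.13. In Nsl1 none did over the transcript, against 4.11%, with medians of 1.12 and 1.05. Against the genome-wide level, 8 reached 2 over the transcript in Msl1, where 29.6% of all genes did, and 3 in Nsl1, where 11.9% did. The shares over the transcript compare unlike lengths, since 9 of the 10 chosen Sox transcripts and 41.2% of all transcripts were shorter than 10 kb.

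Compared gene by gene, the downstream Msl1 ratio was above the Nsl1 ratio at 9 of the 10 genes, where 71.5% of 18914 genes whose summed reads of both libraries came to 20 or more did so, and the interval was above 1 at 8 of them, not at Sox5 and Sox13, against 30.6%. The median quotient of the set was 2.68, against 1.37 over these genes. At the TSS all 10 quotients were above 1, against 47.8% of 17019 genes, and the interval was above 1 at Sox1, Sox9, Sox11 and Sox21, against 14.7%. The median there was 1.61 against 0.966, and Sox5 had fewer than 20 reads in all. The libraries differed in kit, read length and repeated reads, and the part of these differences in the quotients was not tested.

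**Figure D2:**
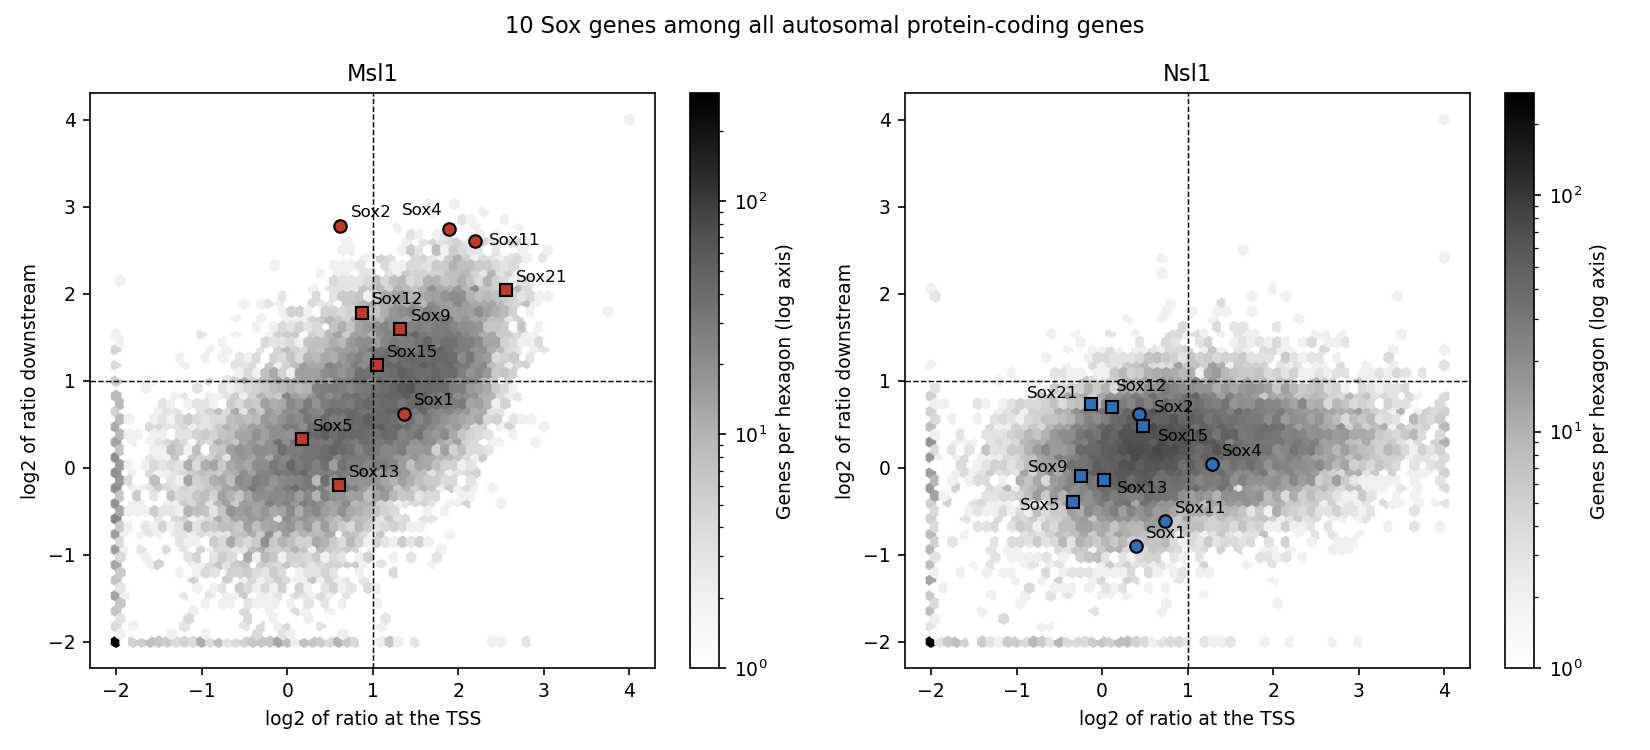
Ratio downstream against ratio at the TSS, both log2, for all autosomal protein-coding genes (grey hexagons, shade by number of genes on a log axis, values held at the axis ends) in the Msl1 and the Nsl1 library. The 10 Sox genes are marked with circles (single-exon) and squares (with introns), and dashed lines mark a ratio of 2. Sox2, at 1.53 by 6.87 in Msl1, is at the 99.6th percentile of genes downstream, while in Nsl1 none of the 10 genes reaches 2 downstream, beside 4.92% of all genes.

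The profiles show where in each gene the reads lay. The highest Msl1 bin started 500 or more bases downstream of the TSS at 8 of the 10 genes, against 38.2% of 20987 genes, and the highest Nsl1 bin at 4, against 31.3% of 21020 genes, where 18 of the 28 bins lay. In Msl1 it was 1750 to 2000 bases for Sox4, 1000 to 1250 for Sox12 at 7.99 (5.12 to 11.9), 1250 to 1500 for Sox21 at 8.04 (4.39 to 13.5), and 500 to 750 for Sox9 at 5.16 (2.95 to 8.38). At Sox1 the highest Msl1 bin right after the TSS was tied, at 10 reads, with that 2000 to 2250 bases downstream. Sox13 had its highest Msl1 bin upstream of the TSS. Of tied bins the most upstream was counted, at the Sox genes and over all genes, so that Sox1 is not among the 8. Summed over all bins at 2 or more, adjacent or not, Sox4 had 4750 bases in Msl1 and Sox11 and Sox21 4250 each, while Sox13 had 500. In Nsl1 the largest sum was 2000 bases, at Sox2, and Sox12 had 1250, of which 1000 lay upstream of its TSS. The longest run of adjacent bins at 2 or more was 4500 bases in Msl1, from the TSS of Sox2, and 1000 bases in Nsl1, upstream of Sox12. Bins hold few reads, and the highest Nsl1 bins of the 10 genes rest on 7 to 20 reads each.

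**Figure D3:**
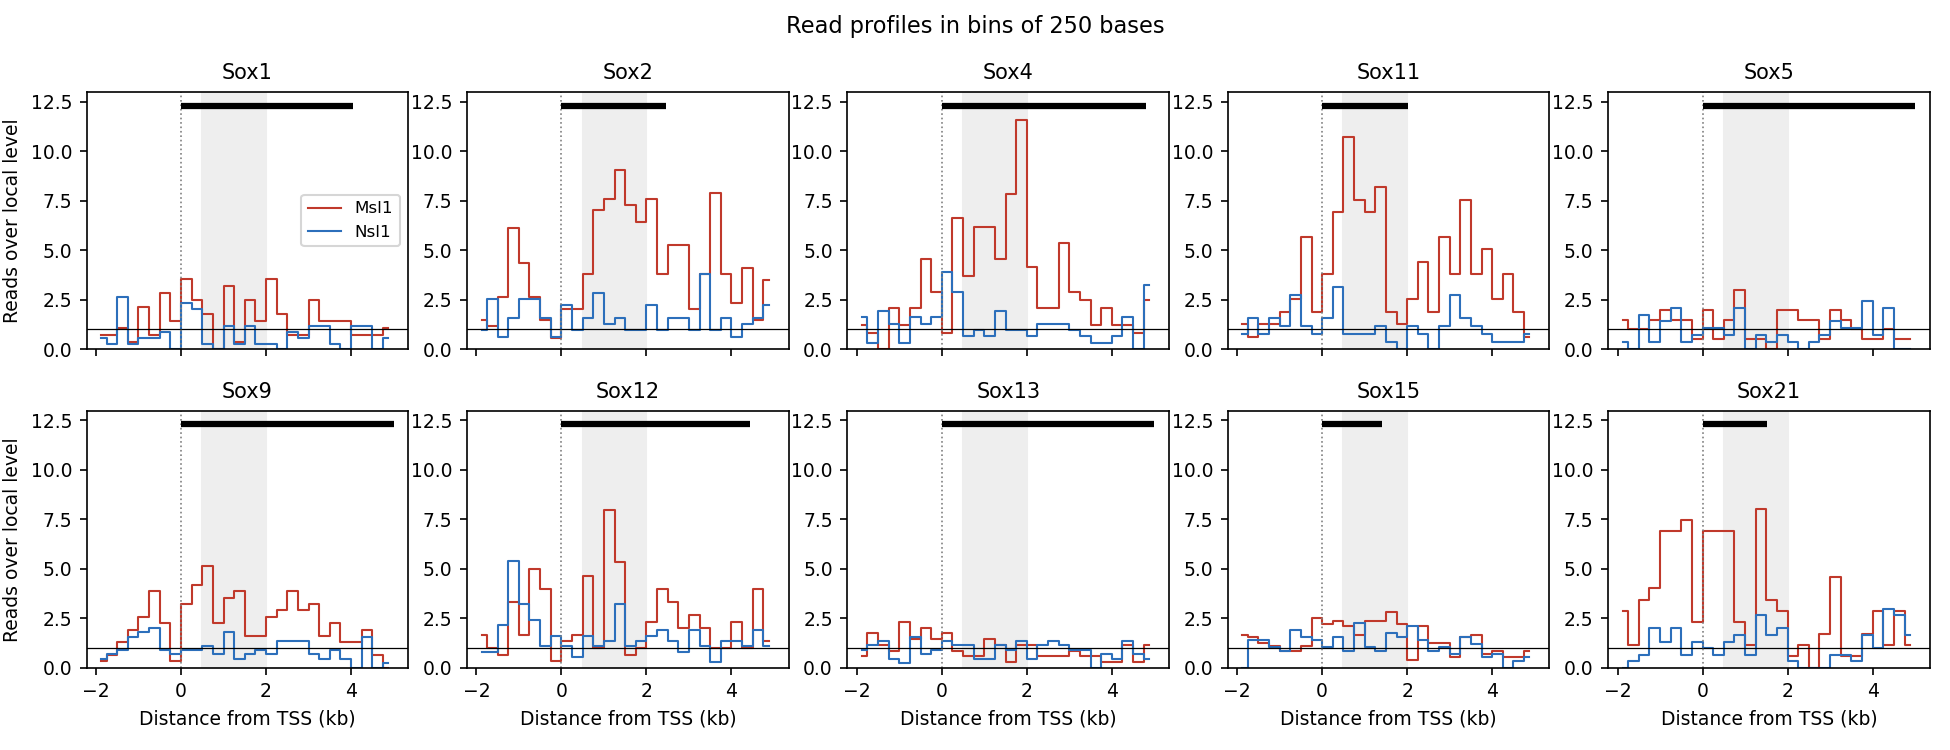
Reads over the local level in bins of 250 bases, from 2 kb upstream to 5 kb downstream of the TSS, at each of the 10 Sox genes in the Msl1 (red) and Nsl1 (blue) library. The black bar is the chosen transcript (Sox5, Sox9 and Sox13 run past the axis), the grey band the downstream window and the horizontal line the local level. Msl1 reads are dense over the coding sequences of Sox2, Sox4 and Sox11. The highest Msl1 bins of these genes are 9.06, 11.6 and 10.7, whereas the highest Nsl1 bin is that upstream of Sox12, at 5.40.

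By the chosen transcripts, Sox1, Sox2, Sox4 and Sox11 are single-exon genes and the other 6 have introns. Downstream, the single-exon genes held 322 Msl1 reads together, a pooled ratio of 5.24 (4.68 to 5.84), and the genes with introns 291, a pooled ratio of 2.37 (2.11 to 2.66). The quotient was 2.21 (1.88 to 2.60). At the TSS it was 1.25 (0.984 to 1.59), with pooled ratios of 2.81 (2.32 to 3.37) and 2.24 (1.93 to 2.59). In Nsl1 the quotient was 0.775 (0.578 to 1.03) downstream and 1.61 (1.18 to 2.17) at the TSS. These intervals pool the reads of each class and leave out the spread between genes, which was wider than they are, and the contrast was named by the rule that chose the genes, so the quotients are descriptions. The downstream window lay wholly inside the transcript at all single-exon genes, but only 60.9% of it did at Sox15 and 68.2% at Sox21. The part of this in the quotients was not tested. The Nsl1 quotient at the TSS rested on Sox4, without which it was 1.36 (0.955 to 1.92), and within 1000 bases of the TSS it was 1.16 (0.933 to 1.43).

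The classes were not uniform. In Msl1 the downstream ratios ran from 1.54 at Sox1 to 6.87 at Sox2 among the single-exon genes, with 3 of the 4 above all genes with introns, and from 0.869 at Sox13 to 4.11 at Sox21 among the others. Without Sox1 the quotient was 2.80 and without Sox2 1.86, and with the most upstream protein-coding TSS of each gene, which moves Sox5, Sox13 and Sox21, it was 1.73. With Sox12 and Sox21 counted as single-exon genes, an assignment made after the values were seen, because the coding sequence of Sox12 lies in 1 exon and the longest transcript of Sox21 has 1, it was 2.40 (2.02 to 2.87) in Msl1 and 1.13 (0.873 to 1.47) in Nsl1. The order in Nsl1 therefore turned with the assignment, and its interval included 1 under both.

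The order of the classes was not general. Over all genes the order in Msl1 was the opposite, with a median downstream ratio of 1.13 at 2740 single-exon genes and 1.58 at 18351 genes with introns. At the TSS in Nsl1 the order over all genes was also the opposite of that of the Sox genes, with medians of 1.18 and 1.82. Among genes at 2 or more at the TSS in Msl1, the downstream Msl1 medians were 1.85 and 2.09. The downstream windows of the single-exon Sox genes had a median GC content of 64.4% (55.1% to 71.1%), those of the Sox genes with introns 57.4% (39.3% to 67.0%), and those of all genes 45.9%. The part of base composition in the ratios was not tested.

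**Figure D4:**
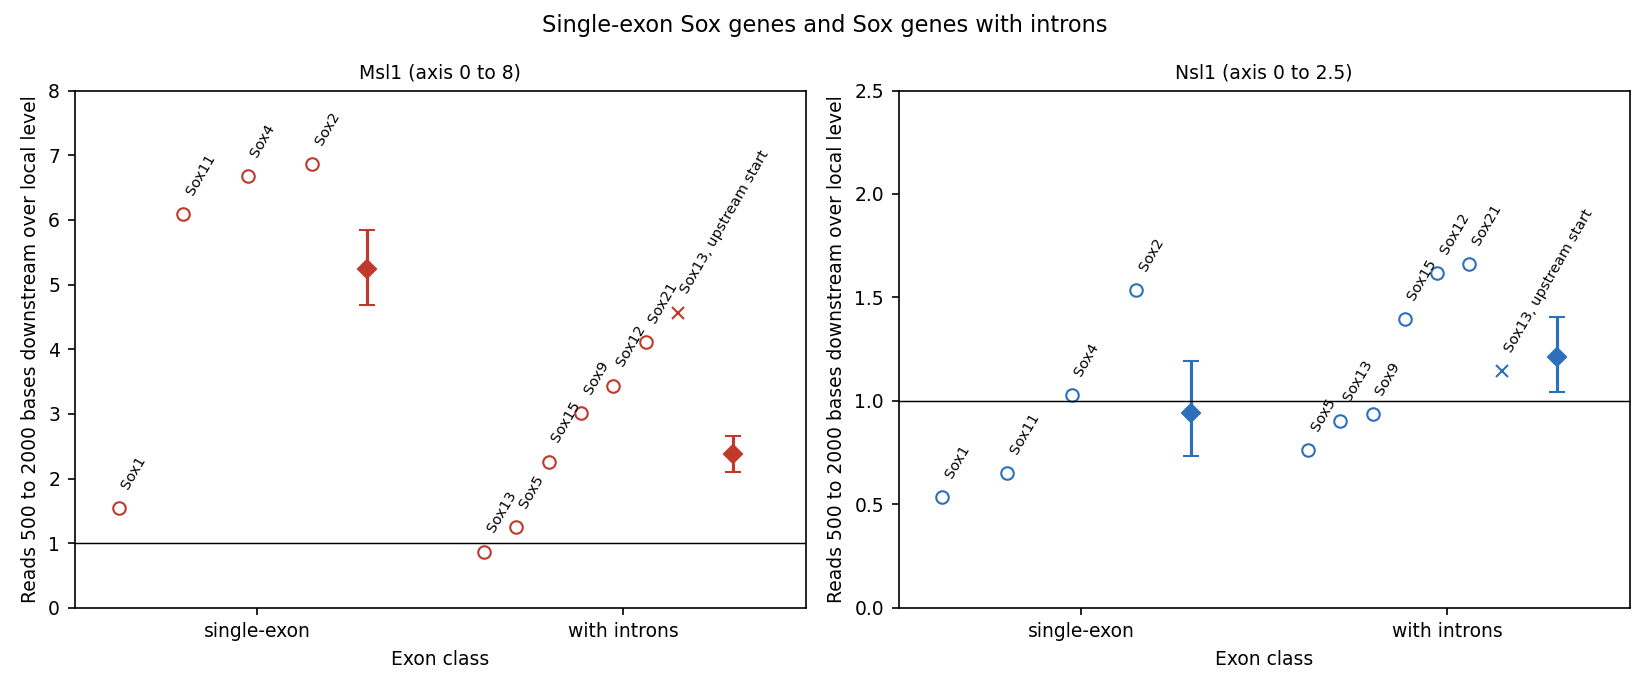
Downstream ratio of each Sox gene (circles) by exon class in the Msl1 (left, axis 0 to 8) and the Nsl1 (right, axis 0 to 2.5) library, with the pooled ratio of the class (diamonds) and its exact 95% Poisson interval. Crosses give Sox13 at its upstream start, which is not in the pooled value. In Msl1 the pooled ratios are 5.24 and 2.37 and Sox1 lies far below the other single-exon genes.

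The 4 primer pairs shown here lie in Sox2 and Sox4, a pair near the TSS and a pair in the gene body (gb) of each, and they place the sequencing reads beside the sites that were measured by PCR. Each primer matched mm9 at 1 place.
Sox2 TSS forward: agggctgggagaaagaagagga
Sox2 TSS reverse: cgaagtgcaattgggatgaaaa
Sox2 gb forward: ctagactccgggcgatgaaaaa
Sox2 gb reverse: acccagcaagaaccctttcctc
Sox4 TSS forward: tgaacggaatcttgtcgctgtc
Sox4 TSS reverse: catgaacgcctttatggtgtgg
Sox4 gb forward: gaattcgaagtgggagcctgag
Sox4 gb reverse: acgagttcgaagacgacctgct

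The middle of the Sox2 TSS amplicon (chr3:34549021-34549161) lay 164 bases downstream of the TSS in the 5′ UTR, and within 500 bases of it the Msl1 ratio was 1.83 (1.18 to 2.70) and the Nsl1 ratio 1.11 (0.608 to 1.87). The Sox2 gb amplicon (chr3:34550699-34550845) lay 1845 bases downstream in the 3′ UTR, with an Msl1 ratio of 6.87 (5.55 to 8.40) and an Nsl1 ratio of 1.27 (0.726 to 2.06). The Sox4 amplicon named for the TSS (chr13:29044566-29044705) lay 946 bases downstream of the annotated start, in the coding sequence, and had an Msl1 ratio of 5.58 (4.19 to 7.28) and an Nsl1 ratio of 1.13 (0.620 to 1.90). That in the gene body (chr13:29043655-29043797), 1856 bases downstream and also coding, had 6.61 (5.09 to 8.44) and 1.38 (0.802 to 2.20). The pair of sites thus differed in Msl1 at Sox2 but overlapped in their intervals at Sox4.

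The promoters of the 10 genes differed in CpG content. In the 200 bases upstream of the TSS, Sox12 had 30 CpG, Sox1 23, Sox2 22, Sox21 14, Sox4 9, Sox9 8, Sox11 7, Sox15 6, Sox13 3 and Sox5 2, against a median of 8 over all 21411 promoters. The promoters of Sox2 (chr3:34548727-34548926, plus strand) and Sox4 (chr13:29045583-29045782, minus strand) are shown, because these genes had similar Msl1 levels downstream and Msl1 intervals at the TSS that did not overlap. CpG dinucleotides are in capitals.
Sox2 promoter: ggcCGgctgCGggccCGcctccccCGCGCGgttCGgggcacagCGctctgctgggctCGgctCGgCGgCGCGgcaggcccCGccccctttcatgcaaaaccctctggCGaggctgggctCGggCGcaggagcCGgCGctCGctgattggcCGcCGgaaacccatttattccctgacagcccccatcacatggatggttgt
Sox4 promoter: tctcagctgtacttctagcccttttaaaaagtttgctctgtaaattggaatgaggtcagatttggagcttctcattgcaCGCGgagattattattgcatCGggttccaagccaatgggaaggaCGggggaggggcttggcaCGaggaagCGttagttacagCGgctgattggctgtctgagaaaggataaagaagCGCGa

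The letters CCAAT, sought on both strands, were found in these 200 bases at 4 of the 10 genes, Sox2, Sox4, Sox9 and Sox11, and in 30.1% of all promoters. The letters ACAAT, the core that Sox proteins are known to bind, were found at Sox9 and Sox15 and in 20.4% of all promoters. Both words end in CAAT and cannot match the same bases of a strand.

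The other Sox genes of the annotation were measured in the same way. Of 9 with enough flanking reads, Sox3, Sox6, Sox7, Sox8, Sox10, Sox14, Sox17, Sox18 and Sox30, 6 reached 2 at the TSS in Msl1 and 1 in Nsl1, beside 46.2% and 41.2% of all genes, and 5 reached 2 downstream in Msl1 and none in Nsl1, beside 32.0% and 4.92%. The X-linked SoxB1 gene Sox3, also a single exon, had the highest Msl1 values of these 9, with 22 Msl1 reads at the TSS, a ratio of 5.82 (3.65 to 8.82), and 29 downstream, a ratio of 5.12 (3.43 to 7.35). At the TSS, Sox8 had an Msl1 ratio of 3.04, Sox7 2.93, Sox14 2.73, Sox17 2.40 and Sox10 2.15. Downstream, Sox14 had 2.51, Sox8 2.09, Sox18 2.03 and Sox30 2.01. Sry had fewer than 20 flanking reads and is given no value. In Nsl1 the gene at 2 or more was Sox14, with 2.44 (1.53 to 3.69) at the TSS.

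Genes with values near those of Sox2, a low TSS with a dense body in Msl1, were sought across the genome. By the distance over the 4 log2 ratios (TSS and downstream, in both libraries), among 6036 genes with at least 20 reads in each window, the nearest were Gng3 at 0.314, Slc2a3 at 0.440 and Trim28 at 0.528. Their Msl1 ratios were 1.38 at the TSS and 8.03 downstream for Gng3, 1.54 and 7.44 for Slc2a3, and 1.66 and 5.96 for Trim28. Sox2 itself had 17 Nsl1 reads at the TSS and so would not have met that minimum.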

How the data were processed

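ChIP-seq reads of Msl1 and Nsl1 from E14 mESCs, 1 library each, were analysed. Per the labels and the methods, the authors sequenced single reads on a HiSeq 2000, converted them with CASAVA 1.8.2 and aligned them to mm9 with Bowtie 0.12.7, keeping reads that aligned uniquely. The deposited files list aligned reads, and their score column holds 255 on every line and was not used.

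One read per position and strand was kept, and each 5′ end was moved by 102 bases (Msl1) or 67 bases (Nsl1), from fragment lengths of 205 and 135 bases in the cross-correlation of the strands. Reads were counted within 500 bases of the TSS, 500 to 2000 bases downstream and over the transcript, and divided by the count expected from 5 to 50 kb on both sides. TSSs were those of the transcript with the longest coding sequence in GENCODE vM1 (mm9). The ratio threshold was 2. All 10 genes were named, other Sox genes were given values only from 2, and the 3 genes most like Sox2. The members and gene lists were chosen with earlier results of these data known. Quotients have exact conditional binomial intervals. The method was tested on simulated reads. Python 3.11.15, numpy 2.4.6, pandas 2.3.3, scipy 1.17.1 and matplotlib 3.10.9 were used. With 1 library per antibody no p-value was computed, and an input library was not used here. Alternatives are given below.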

Additional observations from a re-analysis of the deposited data

How the results depend on the processing

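No paired analysis was possible because there was 1 library per antibody. Of 230 recomputed counts, medians and class ratios, 206 stayed within 1.5 times the count or within the interval of the value, 24 moved and 0 reversed. Reversed means that the interval lay wholly on one side of 1 and the recomputed value on the other, a label that counts could not receive. For medians the interval was the range of the 10 member ratios without the lowest and the highest, which is wide and no interval of the median. Against the genome-wide level, Msl1 counts at 2 or more were 9 at the TSS, 8 downstream and 8 over the transcript, where 58.4%, 50.4% and 29.6% of all genes reached 2, with medians of 3.81, 4.99 and 4.41 against 2.50, 2.01 and 1.51 over all genes. Nsl1 counts rose to 2 at the TSS, 3 downstream and 3 over the transcript, where 52.6%, 17.2% and 11.9% of all genes reached 2, and Nsl1 medians to 1.75, 1.68 and 1.55 against 2.16, 1.44 and 1.33. At that level the pooled downstream ratio of genes with introns rose to 2.01 in Nsl1 and 4.25 in Msl1, that of single-exon genes in Msl1 to 7.05, and the Msl1 class quotient fell to 1.66 downstream and 0.943 at the TSS. The local level from 10 to 100 kb gave 5.93, and that of the upstream side only 6.31, for single-exon genes in Msl1. Within 1000 bases of the TSS, 0 of the 10 genes reached 2 in Nsl1, where the share of all genes was not computed, and the Nsl1 class quotient was 1.16. The class quotients at the TSS were recomputed only after seeing the data. With the most upstream protein-coding TSS, genes with introns had 3.02 in Msl1 and the quotient was 1.73. Leaving out Sox1 gave 6.64 for single-exon genes and a quotient of 2.80, leaving out Sox2 gave 4.42 and 1.86, and leaving out Sox13 gave 2.68 for genes with introns. With Sox12 and Sox21 as single-exon genes, chosen after seeing the data, genes with introns had 1.98 in Msl1 and the Nsl1 quotient was 1.13. Of 480 ratios of single genes, 423 stayed within their interval, 56 moved and 1 reversed in that sense: Sox9 over the transcript in Nsl1, 0.791 by the local level and 1.45 by the genome-wide level. In all, 17 of 60 ratios lay on the other side of 1 in at least 1 alternative and, that of Sox9 aside, had intervals that included 1. The cause was not tested. Windows with 9 to 30 reads, as at most TSSs, cannot show differences under about the width of their intervals.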
